A study of Mus musculus with 28 samples.

Results

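The genes described here are the 64 axon guidance ligands and receptors whose nascent RNA was counted in mouse forebrain cultures. The rule took every gene whose mean normalized count reached 20 and whose name begins with Sema, Plxn, Nrp and a digit, Efna, Efnb, Epha, Ephb, Slit and a digit, Robo, Ntn or Unc5, together with Dcc and without the Slitrk genes. In all, 74 listed genes fit the name rule and 10 of them had too low a mean count, with Robo3 (15.6) just under the minimum and Efna1 (23.5) just over it. The 64 stand among 14067 genes with such a mean count and 22919 genes listed. By family they were 5 class 3 semaphorins, 13 other semaphorins, 10 plexins and neuropilins, 7 ephrins, 13 Eph receptors, 3 slits, 2 robos, 5 netrins and netrin-Gs, and 6 genes whose names begin with Unc5 or that are Dcc. Unc50 fits the name rule only and is not a netrin receptor.

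Axon guidance molecules steer growing axons and migrating cells by attraction and repulsion. Class 3 semaphorins are secreted and signal through neuropilins and plexins, most other semaphorins are membrane-bound and signal through plexins, ephrins are membrane-bound ligands of the Eph receptor tyrosine kinases, slits are secreted ligands of the robos, and netrins bind Dcc, which attracts, and the Unc5 receptors, which repel. Many of these genes stay on after axons have reached their targets, and several are known to act at synapses and dendrites of mature neurons.

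The cultures were made from pooled cortices and hippocampi of CD1 mouse embryos at embryonic day 18 and held neurons, astrocytes and oligodendrocyte precursor cells, per the labels. On day in vitro 14 the cells were infected with lentivirus, which carried either an shRNA directed at Rai1 (the shRai1 arm) or a control shRNA (the shCtrl arm). On day 17 each arm was treated for 4 hours with vehicle (water), with 1 µM tetrodotoxin (TTX), a sodium channel blocker that silences firing, or with 20 µM bicuculline (BIC), a blocker of GABA-A receptors that raises network activity. Nascent RNA was labelled with bromouridine for the last 20 minutes and sequenced (Bru-seq) from 2 libraries each for shCtrl vehicle and shCtrl BIC and 3 libraries for each of shCtrl TTX, shRai1 vehicle, shRai1 TTX and shRai1 BIC.

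Values per library were not used here, since the tables hold comparisons and 1 pooled level per condition. Each log2 change therefore stands with the standard error (SE) of the authors' model, and p-values measure the spread between these 16 libraries. By their titles, the shCtrl vehicle libraries were replicates 1 and 2 and the shCtrl BIC libraries replicates 2 and 3. Whether a replicate number marks a shared culture preparation is not known from the labels. A call is an adjusted p under 0.05, and the depth of single libraries is unknown. In the authors' deposited table of FPKM (fragments scaled to gene length and sequencing depth, a level per length), the labelled cell types were present in shCtrl vehicle: 12 of 12 neuron markers, 9 of 10 astrocyte markers and 8 of 8 oligodendrocyte precursor markers stood at 1 FPKM or more, against 3 of 8 oligodendrocyte, 5 of 9 microglia, 1 of 7 endothelial and 2 of 8 mural or fibroblast markers. In bulk cultures, fewer cells of a type and less RNA per cell cannot be told apart. Of 6 activity-regulated genes read as a check of the drugs, all 6 fell under TTX in both arms per the authors' deposited tables. Under BIC 2 rose and 1 (Egr1) fell in shCtrl, and 4 rose and 1 fell in shRai1. Nascent RNA of the targeted gene, Rai1, was not shown to be lower in shRai1 libraries. Its log2 changes were 0.16 (SE 0.073) in vehicle, -0.12 (SE 0.064) in TTX and 0.03 (SE 0.073) in BIC per the authors' deposited tables. Mature Rai1 RNA and protein were not measured in these libraries, so the values do not test the knockdown. Directions between the arms rest on the labels.

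Most guidance genes responded to activity, in both directions. In shCtrl, TTX raised 20 and lowered 19 of the 64 genes, against 12.7% higher and 16.3% lower among all 14067 genes with a mean count of at least 20. BIC in shCtrl raised 21 and lowered 25, against 19.8% higher and 20.0% lower of all genes. In shRai1, TTX raised 13 and lowered 20 (all genes 14.8% and 18.4%), and BIC raised 24 and lowered 29 (all genes 25.0% and 26.1%). The share called was 60.9% and 71.9% under TTX and BIC in shCtrl and 51.6% and 82.8% in shRai1. The median log2 change of the 64 genes stayed near 0 under TTX (-0.01 in shCtrl, -0.02 in shRai1) and was below it under BIC (-0.10 and -0.15, the latter -0.29 over the 46 genes that overlap no other listed gene), beside all-gene medians of -0.002 and 0.001 under TTX and -0.04 and -0.02 under BIC. These genes were also more deeply counted than most, with a median mean count of 977 against 360 for all genes, and the part of this depth in the shares called was not tested. Cell type markers moved too: in shCtrl TTX raised 2 and lowered 4 of 12 neuron markers, 0 and 4 of 9 astrocyte markers and 1 and 4 of 7 oligodendrocyte precursor markers, and BIC raised 6 and lowered 5, 1 and 2, and 0 and 1 of them. In shRai1 TTX raised 0 and lowered 3 neuron markers, 1 and 1 astrocyte markers and 5 and 0 oligodendrocyte precursor markers, whose median was 0.47 against -0.50 in shCtrl. BIC in shRai1 raised 6 and lowered 5, 2 and 1, and 0 and 0 of them. The part of these shifts in the guidance responses was not tested. Averaged over both arms with the Wald test computed here, TTX raised 22 and lowered 23 genes and BIC raised 26 and lowered 29. Of the 13935 genes that passed both the mean count of 20 and the FPKM minimum of the tests computed here, 19.5% rose and 22.6% fell under TTX and 27.3% rose and 30.3% fell under BIC, and the all-gene shares given for the other tests computed here have the same denominator.

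**Figure D1:**
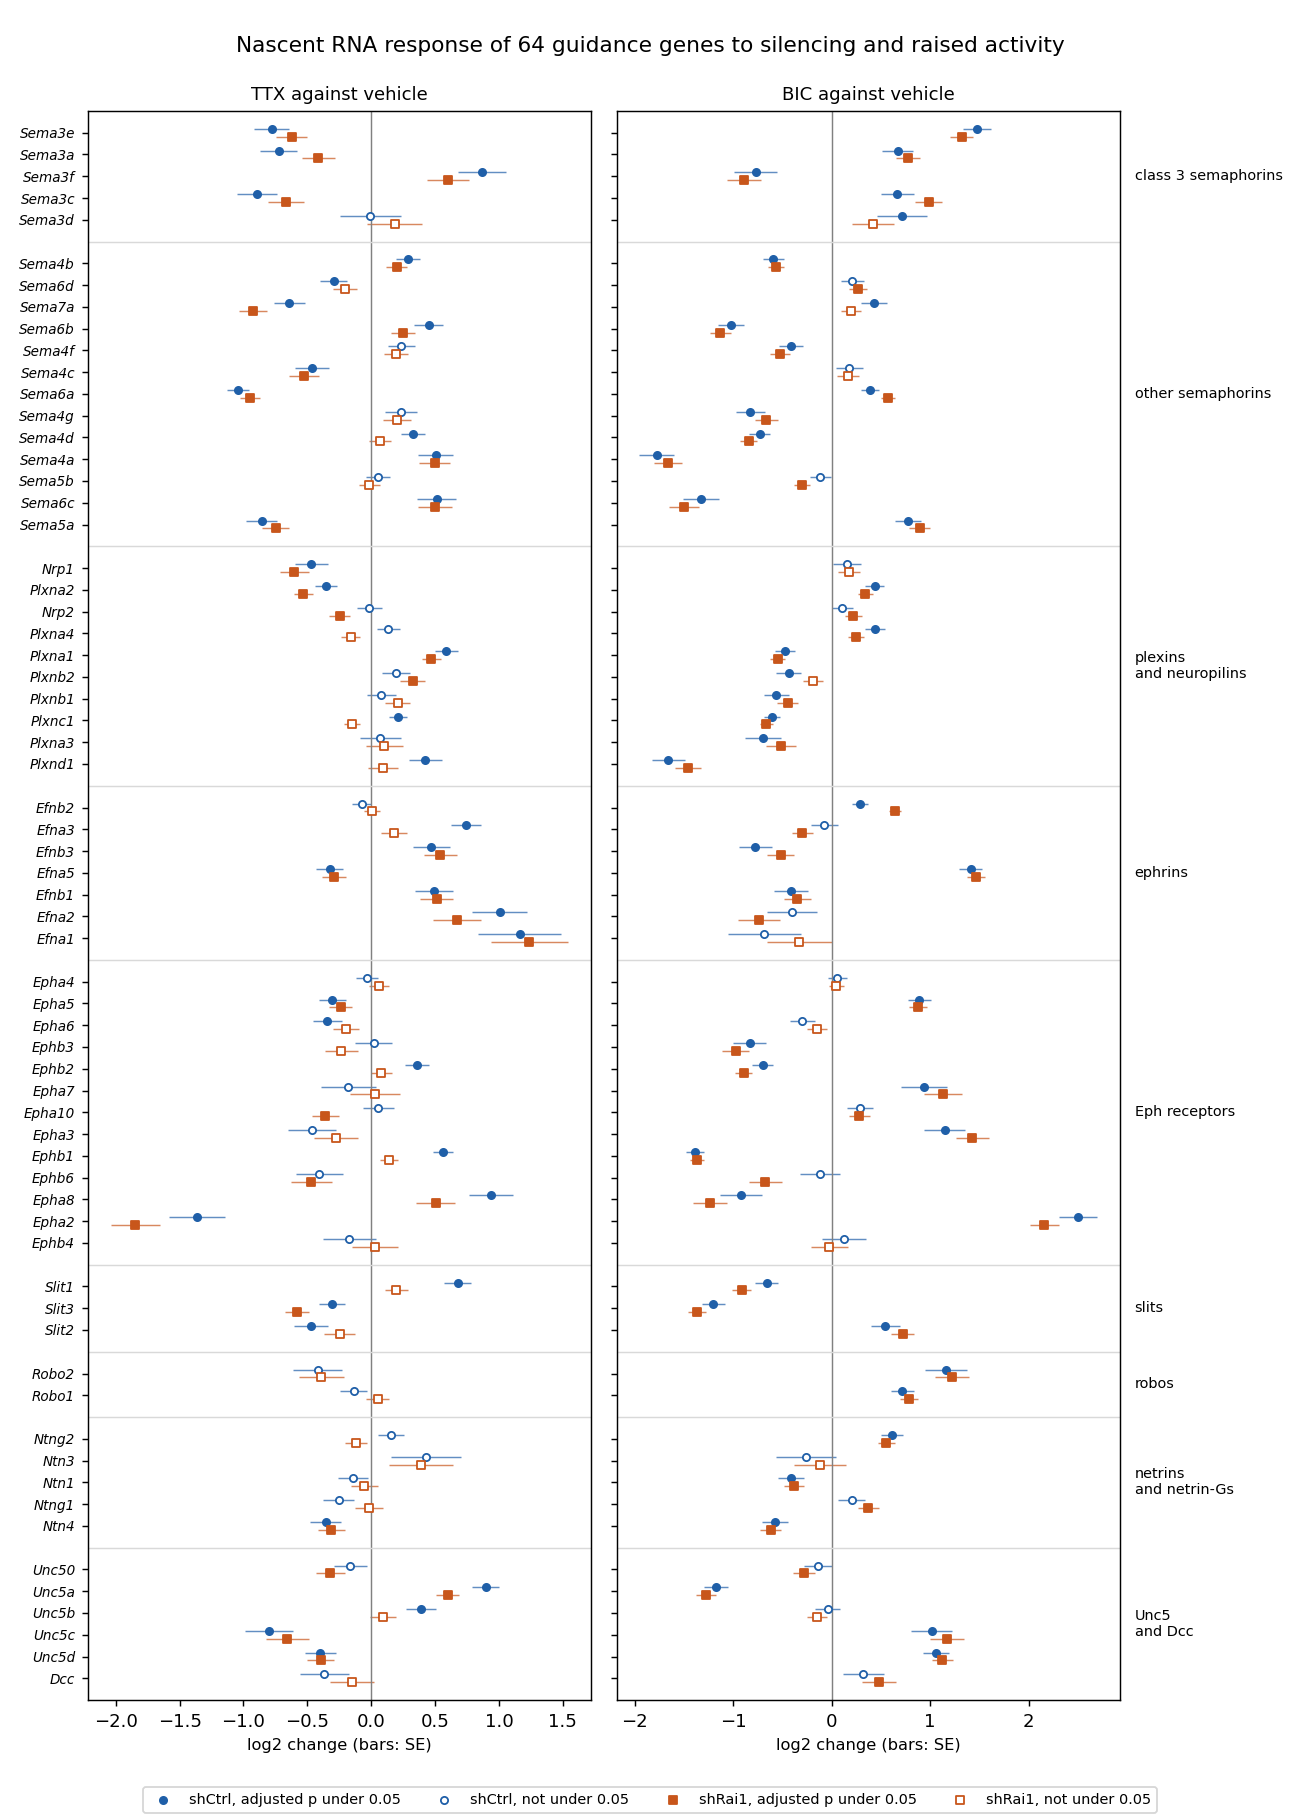
Log2 change of nascent RNA for each of the 64 genes, grouped by family, under TTX (left) and BIC (right) against vehicle, with circles for shCtrl and squares for shRai1. Bars are the SE of the authors' model and filled symbols have an adjusted p under 0.05. Epha2 lies furthest out in both panels, at -1.37 and 2.50 in shCtrl.

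By level, 21 of the 64 genes stood at 10 FPKM or more in shCtrl vehicle, 40 at 1 to 10 and 3 (Sema3d, Efna1 and Epha2) under 1, with a median of 7.55 FPKM per the authors' deposited table. The FPKM cover the full gene length, introns included in a nascent RNA assay. Of the 46 BIC calls in shCtrl, 11 were of genes whose bounds in the file lay apart from those of vehicle in the direction of the call, 3 higher (Epha2, Epha3 and Unc5c) and 8 lower (Sema4a, Sema6b, Sema6c, Plxnd1, Epha8, Slit1, Slit3 and Unc5a), and of the 39 TTX calls 0 were. The sign of the FPKM ratio was opposite to the called change for 2 of the 39 genes under TTX (Sema4b and Sema6d) and for 4 of the 46 under BIC (Sema3a, Plxna4, Robo1 and Ntng2). The highest levels were those of Efna3 (26.1), Nrp1 (25.8) and Efnb2 (25.6), an ephrin-A, a neuropilin and an ephrin-B, per the authors' deposited table of FPKM.

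The responses recurred between the arms, which share no library. Of 39 genes called under TTX in shCtrl and 33 in shRai1, 28 were called in both, all in the same direction, which is 71.8% of the first list and 84.8% of the second. For all genes these shares were 68.8% and 60.1%, and 2802 of their 2829 shared calls had the same direction. Under BIC 43 genes were called in both arms out of 46 and 53, again with no reversal (93.5% and 81.1%, all genes 90.9% and 70.8%). The 5088 shared BIC calls among all genes held no reversal either. Calls shared by silencing and raised activity mostly ran in opposite directions, among guidance genes and among all genes. Comparing TTX in shCtrl with BIC in shRai1, which also share no library, 33 guidance genes were called in both. Of these, 31 moved in opposite directions, or 79.5% of the TTX list and 58.5% of the BIC list, against 57.2% and 32.5% for all genes. Among all genes 2332 of the 2776 shared calls were opposite. Comparing TTX in shRai1 with BIC in shCtrl, 23 of 25 shared calls were opposite (69.7% and 50.0% of the lists, all genes 41.3% and 34.5%). For all genes this was 1928 of 2486 shared calls. The list shares also depend on how many genes each comparison called. In both comparisons the exceptions among guidance genes were Slit3 and Ntn4, which fell under either drug.

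The secreted class 3 semaphorins repel or attract axons through neuropilin and plexin complexes. Of these 5 genes 1 rose and 3 fell under TTX in both arms (all genes 12.7% and 16.3% in shCtrl, 14.8% and 18.4% in shRai1). Under BIC in shCtrl 4 rose and 1 fell (all genes 19.8% and 20.0%). Sema3e, a ligand of plexin D1, had 5.88 FPKM in shCtrl vehicle, 5.21 in TTX and 7.46 in BIC per the authors' deposited table of FPKM. The BIC value was the highest, but its bounds (5.54 to 9.37) overlapped those of vehicle (4.29 to 7.47), and the log2 ratio of these levels, 0.34, was smaller than the change in the comparison table. Per the authors' deposited comparison tables, it fell by 0.78 (SE 0.14, adjusted p 2.99e-07) under TTX and rose by 1.47 (SE 0.14, adjusted p 9.36e-23) under BIC in shCtrl. The shRai1 changes were -0.62 and 1.32 per the authors' deposited tables. Sema3c fell by 0.89 and Sema3a by 0.72 under TTX in shCtrl and rose by 0.66 and 0.67 under BIC per the authors' deposited tables. The rise of Sema3a is uncertain, because its pooled FPKM was 4.18 in vehicle and 4.12 in BIC. Sema3f ran the other way. Its deposited FPKM was 1.55 in vehicle, 3.83 in TTX and 1.42 in BIC, and per the authors' deposited tables it rose by 0.87 (SE 0.19, adjusted p 3.20e-05) under TTX and fell by 0.77 (SE 0.22, adjusted p 0.00154) under BIC in shCtrl. Sema3d was scarce, with 0.0680 FPKM in shCtrl vehicle per the authors' deposited table.

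The 13 other semaphorins, mostly membrane-bound, divided by gene. In shCtrl 5 rose and 5 fell under TTX (all genes 12.7% and 16.3%). Under BIC 3 rose and 7 fell (all genes 19.8% and 20.0%). Sema4a, a transmembrane semaphorin also known in immune cells, showed the largest BIC fall of all 64 genes. Its level was 8.29 FPKM in shCtrl vehicle (bounds of the file 5.74 to 10.8), 10.4 in TTX and 2.80 in BIC (1.51 to 4.08) per the authors' deposited table, so that the BIC bounds lay below those of vehicle. In the authors' deposited comparison tables Sema4a fell by 1.78 (SE 0.17, adjusted p 6.66e-23) under BIC and rose by 0.50 (SE 0.14, adjusted p 0.00143) under TTX in shCtrl, with -1.66 and 0.50 in shRai1. The class 6 semaphorins, ligands and receptors for plexin A proteins, did not move together. Sema6c changed by 0.51 under TTX and -1.33 under BIC in shCtrl, and Sema6b by 0.45 and -1.02, per the authors' deposited tables. Sema6a did the reverse, falling by 1.04 (SE 0.09, adjusted p 8.82e-32) under TTX and rising by 0.39 (SE 0.09, adjusted p 0.000221) under BIC in shCtrl per the authors' deposited tables. Its TTX fall had the smallest adjusted p of the 64 genes in both arms. Sema5a, whose long gene spans 452 kb, fell by 0.86 under TTX and rose by 0.77 under BIC, and Sema7a, a GPI-anchored semaphorin that binds integrins and plexin C1, fell by 0.64 and rose by 0.43, all per the authors' deposited tables for shCtrl. The pooled FPKM of Sema5a fell less under TTX, from 2.38 in vehicle to 2.04 (log2 ratio -0.21). Sema4b had the highest level of this family, 20.7 FPKM in shCtrl vehicle. It rose by 0.29 under TTX per the authors' deposited table, which its pooled FPKM (20.5 in TTX) did not follow. The fall of Sema6d under TTX by 0.29 per the authors' deposited table was likewise not followed by its FPKM, 16.2 in vehicle and 16.3 in TTX.

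Plexins and neuropilins are the semaphorin receptors and their co-receptors. In shCtrl 3 of the 10 rose and 2 fell under TTX (all genes 12.7% and 16.3%). Under BIC 2 rose and 6 fell (all genes 19.8% and 20.0%). Plxnd1, the receptor of Sema3e, moved opposite to that ligand. Its deposited FPKM was 4.68 in shCtrl vehicle, 6.81 in TTX and 1.62 in BIC, and the BIC bounds (0.975 to 2.26) lay below those of vehicle (3.34 to 6.03). By the authors' deposited comparison tables Plxnd1 fell by 1.66 (SE 0.17, adjusted p 7.10e-22) under BIC and rose by 0.42 (SE 0.13, adjusted p 0.00680) under TTX in shCtrl. In shRai1 its changes were -1.46 and 0.09, and the latter did not pass (adjusted p 0.604), per the authors' deposited tables. The plexin A genes split: Plxna1 rose by 0.59 under TTX and fell by 0.48 under BIC, while Plxna2 fell by 0.35 and rose by 0.44, per the authors' deposited tables for shCtrl. The direction of Plxna4 under BIC is uncertain, with a change of 0.44 per the authors' deposited table for shCtrl and a pooled FPKM of 20.7 in vehicle and 18.0 in BIC. Nrp1, a neuropilin that binds Sema3a and has the highest mean level of this family, fell by 0.47 (SE 0.13, adjusted p 0.00161) under TTX in shCtrl and by 0.60 in shRai1, and its BIC changes of 0.15 and 0.17 did not pass, per the authors' deposited tables.

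**Figure D2:**
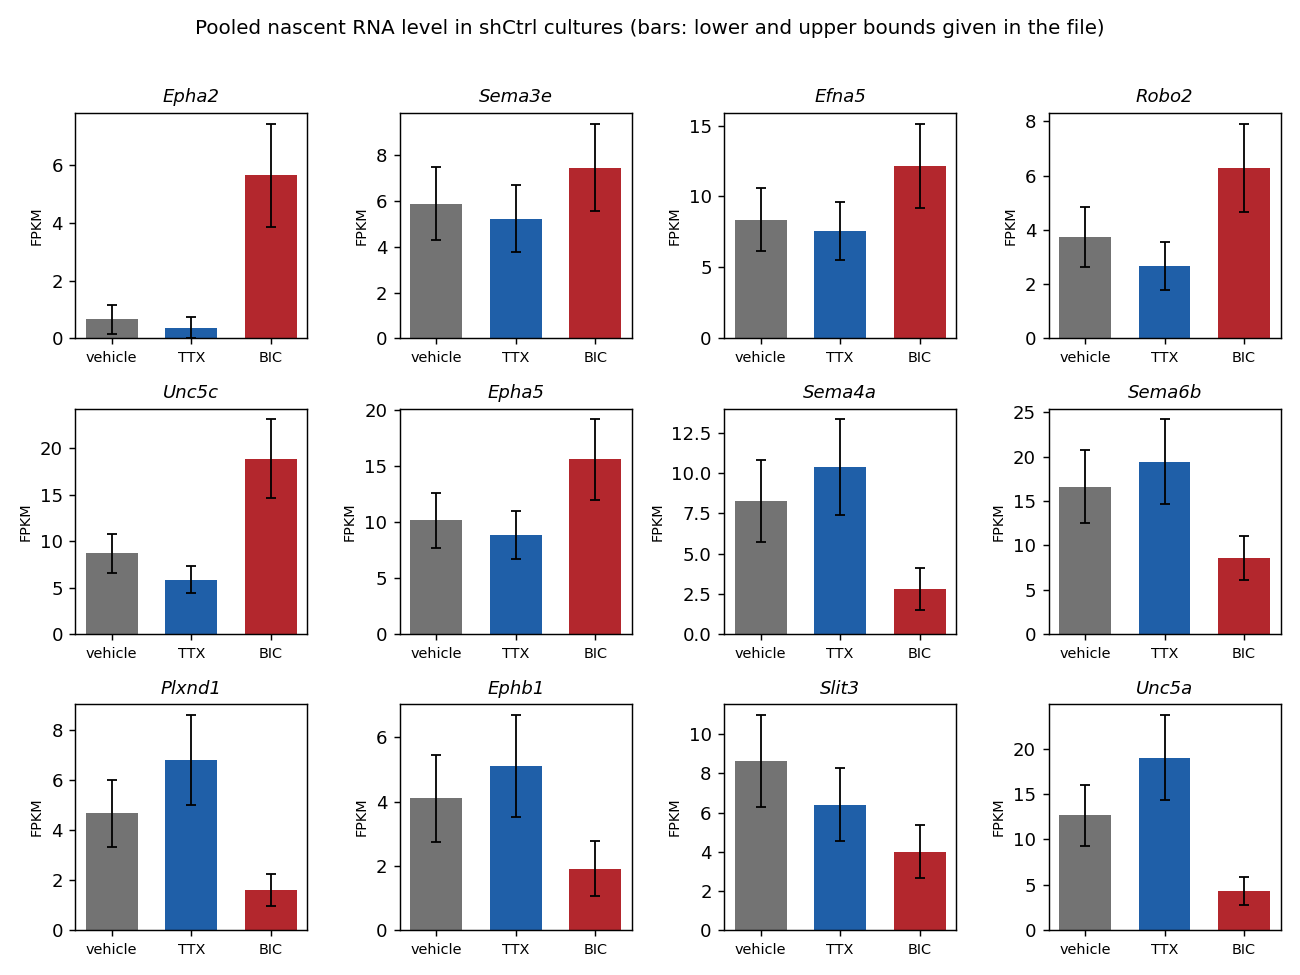
Pooled FPKM of 12 guidance genes in shCtrl cultures treated with vehicle, TTX or BIC. Bars start at 0 and the lines are the lower and upper bounds that the file gives for each pooled value. Epha2, Sema3e, Efna5, Robo2, Unc5c and Epha5 stood highest in BIC and the other 6 genes lowest in BIC, and the bounds of BIC and vehicle overlap for Sema3e, Efna5, Robo2, Epha5 and Ephb1.

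Among ephrins, 5 of 7 rose and 1 fell under TTX in shCtrl (all genes 12.7% and 16.3%). Under BIC 2 rose and 2 fell (all genes 19.8% and 20.0%). The shRai1 counts were 4 higher and 1 lower under TTX (all genes 14.8% and 18.4%). They were 2 higher and 4 lower under BIC (all genes 25.0% and 26.1%). The TTX rises included Efna1 (1.16, SE 0.33, adjusted p 0.00239), Efna2 (1.01, SE 0.22, adjusted p 4.08e-05), Efna3, Efnb1 (0.49) and Efnb3 (0.47) per the authors' deposited table for shCtrl. Efna1 and Efna2 are low genes, at 0.231 and 3.85 FPKM in shCtrl vehicle and 2.29 and 5.49 in TTX per the authors' deposited table. Efna5, a ligand of EphA receptors known from topographic mapping, was the ephrin that fell under TTX. Its deposited FPKM was 8.35 in vehicle, 7.55 in TTX and 12.2 in BIC. Per the authors' deposited comparison tables, Efna5 rose by 1.41 (SE 0.12, adjusted p 7.23e-32) under BIC and fell by 0.32 (SE 0.11, adjusted p 0.0113) under TTX in shCtrl, with 1.46 and -0.29 in shRai1. Efnb2 had the highest mean level of the ephrins over all 6 conditions, while in shCtrl vehicle its 25.6 FPKM lay below the 26.1 of Efna3. Under BIC Efnb2 rose by 0.28 in shCtrl and 0.64 in shRai1 per the authors' deposited tables.

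Of the 13 Eph receptors, 3 rose and 3 fell under TTX in shCtrl (all genes 12.7% and 16.3%). Under BIC 4 rose and 4 fell (all genes 19.8% and 20.0%). All 4 that rose under BIC were EphA receptors (Epha2, Epha3, Epha5 and Epha7), and those that fell were Ephb1, Ephb2, Ephb3 and Epha8. In shRai1, TTX raised 1 and lowered 4 (all genes 14.8% and 18.4%), and BIC raised 5 and lowered 5 (25.0% and 26.1%). Epha2, a receptor of ephrin-A ligands encoded on chr4:140857136-140885299 (mm9), stood at 0.661 FPKM in shCtrl vehicle (bounds 0.164 to 1.16), 0.362 in TTX and 5.65 in BIC (3.85 to 7.45) per the authors' deposited table. The BIC bounds lay wholly above those of vehicle. In the authors' deposited comparison tables Epha2 rose by 2.50 (SE 0.19, adjusted p 8.98e-37) under BIC in shCtrl and by 2.16 (SE 0.15) in shRai1. It fell by 1.37 (SE 0.22, adjusted p 8.34e-09) and 1.85 (SE 0.19) under TTX per the authors' deposited tables. Epha3, Epha7 and Epha5 rose under BIC in shCtrl by 1.15, 0.93 and 0.89 per the authors' deposited tables. Their FPKM in vehicle and BIC were 3.62 and 7.60 for Epha3, 6.18 and 8.16 for Epha7, and 10.1 and 15.6 for Epha5 per the authors' deposited table. Under TTX in shCtrl only Epha5 of these 3 passed, with a fall of 0.30 (SE 0.10, adjusted p 0.0157) per the authors' deposited table.

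EphB receptors bind ephrin-B ligands and are known at excitatory synapses, and 3 of the 5 fell under BIC in shCtrl (all genes 20.0%). Ephb1 changed by -1.39 (SE 0.09, adjusted p 5.32e-52), Ephb3 by -0.83 and Ephb2 by -0.70 under BIC in shCtrl per the authors' deposited tables, while the changes of Ephb6 (-0.12) and Ephb4 (0.13) did not pass. The pooled FPKM of Ephb3 fell less, from 7.52 in vehicle to 6.46 in BIC (log2 ratio -0.22). Ephb6 fell by 0.68 (SE 0.16, adjusted p 0.000178) in shRai1 per the authors' deposited table and by 0.40 (SE 0.13, adjusted p 0.00567) averaged over both arms with the Wald test. The level of Ephb1 was 4.10 FPKM in vehicle, 5.10 in TTX and 1.91 in BIC per the authors' deposited table, and the lowest value was that of BIC. Epha8, an EphA receptor, fell by 0.92 under BIC and rose by 0.94 under TTX per the authors' deposited tables for shCtrl. Epha6 fell by 0.22 under BIC averaged over both arms with the Wald test (SE 0.0814, adjusted p 0.0145), and passed in neither arm alone. Epha4, with the highest mean level of the family (16.4 FPKM in shCtrl vehicle), changed by -0.03 under TTX and 0.06 under BIC (SE 0.09 and 0.10), and neither change passed per the authors' deposited tables. Epha4 and Ephb4 were the Eph receptors called in none of the 4 drug responses.

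The promoter of Epha2 is shown because it was the only one among 55 members with a promoter entry to hold the full cAMP response element TGACGTCA, the site bound by CREB-family factors. Promoters are 300 bases, 250 before to 50 from the annotated start, from RefSeq on GRCm38.p6, and motifs were searched on both strands. In the line that follows, on chr4:141300971-141301270, plus strand, the capitals mark that element at positions -33 to -26, counted with the start base as 0.
Epha2: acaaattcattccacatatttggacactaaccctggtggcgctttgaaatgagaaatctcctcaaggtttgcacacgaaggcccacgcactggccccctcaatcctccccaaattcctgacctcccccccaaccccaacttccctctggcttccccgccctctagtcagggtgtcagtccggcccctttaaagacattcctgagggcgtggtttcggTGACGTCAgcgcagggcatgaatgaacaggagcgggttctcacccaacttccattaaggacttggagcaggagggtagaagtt
The element occurred in 1 of the 71 promoters of the members (1.41%) and in 1.79% of all 32851 promoters, so it was no more frequent among members. A match is a description of letters, and binding was not measured here.

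The slits, secreted repellents, fell into different patterns. Slit3, on chr11:34934958-35522009 (mm9), had 8.65 FPKM in shCtrl vehicle, 6.39 in TTX and 3.99 in BIC per the authors' deposited table, lowest in BIC. It fell by 1.20 (SE 0.12, adjusted p 1.61e-23) under BIC and by 0.30 (SE 0.10, adjusted p 0.0149) under TTX in shCtrl, and by 1.37 and 0.58 in shRai1, per the authors' deposited tables. Slit1 rose by 0.68 under TTX and fell by 0.66 under BIC, and Slit2 fell by 0.47 and rose by 0.54, per the authors' deposited tables for shCtrl. The pooled FPKM in vehicle, TTX and BIC was 10.1, 10.9 and 5.03 for Slit1 and 1.45, 1.15 and 1.79 for Slit2. By level the TTX rise of Slit1 was thus smaller, with a log2 ratio of 0.11. Slit2 and Slit3 each overlap a microRNA gene (Mir218-1 and Mir218-2), so that their reads could include its transcript.

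Of the slit receptors, Robo2 rose under BIC and the direction of Robo1 is uncertain. Robo2 rose by 1.16 (SE 0.21, adjusted p 3.95e-07) in shCtrl and 1.22 in shRai1, and its FPKM was 3.75 in vehicle and 6.28 in BIC in shCtrl, per the authors' deposited tables. The change of Robo1 was 0.72 (SE 0.12, adjusted p 8.95e-09) in shCtrl per the authors' deposited table, while its pooled FPKM was 4.33 in vehicle and 4.10 in BIC. Under TTX neither passed in either arm, with changes of -0.42 and -0.14 in shCtrl per the authors' deposited table. Averaged over both arms with the Wald test, Robo2 fell by 0.40 (SE 0.13, adjusted p 0.00752) under TTX.

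Of the 5 netrins and netrin-Gs in shCtrl, 0 rose and 1 fell under TTX (all genes 12.7% and 16.3%). Under BIC 1 rose and 2 fell (all genes 19.8% and 20.0%). Ntn1, the classic attractant ligand of Dcc, fell by 0.41 (SE 0.13, adjusted p 0.00587) under BIC in shCtrl and by 0.38 in shRai1 per the authors' deposited tables. Ntn4, a laminin-like netrin, fell under BIC by 0.58 (SE 0.14, adjusted p 0.000123) and under TTX by 0.36 (SE 0.12, adjusted p 0.0154) in shCtrl, and by 0.62 and 0.31 in shRai1, per the authors' deposited tables. Its pooled FPKM of 3.32, 3.20 and 3.07 in vehicle, TTX and BIC changed little, and its interval overlaps 2 other listed genes. Ntng2, a GPI-anchored netrin-G, rose by 0.61 under BIC in shCtrl per the authors' deposited table, while its FPKM was 15.4 in vehicle and 10.1 in BIC, so that its direction is uncertain.

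The Unc5 netrin receptors, which mediate repulsion, split into opposite responses. With Dcc and Unc50 they counted 2 rises and 2 falls under TTX in shCtrl (all genes 12.7% and 16.3%). Under BIC there were 2 rises and 1 fall (all genes 19.8% and 20.0%). Unc5c, on chr3:141128528-141497886 (mm9), had 8.69 FPKM in shCtrl vehicle, 5.87 in TTX and 18.9 in BIC per the authors' deposited table, and its BIC bounds (14.6 to 23.1) lay above those of vehicle (6.57 to 10.8). It rose by 1.02 (SE 0.21, adjusted p 7.06e-06) under BIC and fell by 0.80 (SE 0.19, adjusted p 0.000203) under TTX in shCtrl per the authors' deposited tables. Unc5d rose by 1.06 under BIC and fell by 0.40 under TTX per the authors' deposited tables for shCtrl. Unc5a was the reverse, with 12.7 FPKM in vehicle, 19.0 in TTX and 4.33 in BIC per the authors' deposited table. It rose by 0.90 (SE 0.10, adjusted p 2.68e-16) under TTX and fell by 1.18 (SE 0.12, adjusted p 2.64e-20) under BIC in shCtrl, and the shRai1 changes were 0.60 and -1.28, per the authors' deposited tables. Its interval overlaps Hk3, and the counting rule for shared reads is not given in the sources used here. Unc5b rose under TTX in shCtrl, by 0.39 (SE 0.12, adjusted p 0.00500), with 0.09 (SE 0.10, adjusted p 0.553) in shRai1, per the authors' deposited tables. The difference between these arms did not pass the interaction test described below. Dcc, the receptor that mediates attraction to netrin, rose under BIC in shRai1, by 0.48 (SE 0.17, adjusted p 0.0142) per the authors' deposited table. In shCtrl the BIC change of Dcc was 0.32 (SE 0.21, adjusted p 0.252) per the authors' deposited table, and averaged over both arms with the Wald test it rose by 0.40 (SE 0.14, adjusted p 0.00835).

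Guidance genes that rose and those that fell differed in length. The 64 genes had a median length of 98.7 kb (6.15 to 1097 kb) against 28.8 kb for all genes with a length and a mean count of at least 20. Genes that rose under BIC in shCtrl had a median length of 231 kb and those that fell 29.0 kb. Under TTX the order was reversed, at 34.3 kb for rises and 231 kb for falls. Of 19 guidance genes of at least 200 kb, 13 rose and 2 fell under BIC in shCtrl, whereas of 28 genes under 50 kb 3 rose and 16 fell. Among all genes 35.1% of those of at least 200 kb rose and 23.7% fell, and 14.5% and 18.4% of those under 50 kb did so. The 13 include Sema3a, Plxna4 and Robo1, whose pooled FPKM was lower in BIC than in vehicle, and without these 3 genes 10 of 16 rose and 2 fell. Under TTX in shCtrl 1 of the 19 long genes rose and 11 fell, and 10 of 18 fell without Sema6d, whose FPKM also went the other way. Among all genes of at least 200 kb, 14.9% rose and 23.4% fell under TTX in shCtrl. The Spearman rank correlation between length and log2 change across the 64 genes was -0.49 under TTX and 0.48 under BIC in shCtrl and -0.47 and 0.47 in shRai1, beside -0.08, 0.14, -0.04 and 0.14 over all genes. Across the 46 guidance genes that overlap no other listed gene it was -0.52, 0.62, -0.48 and 0.57. With the log2 ratio of the pooled FPKM to vehicle in shCtrl in place of the log2 change, the correlation across the 64 genes was -0.44 under TTX and 0.38 under BIC. Genes are not independent replicates, and the TTX and BIC values of an arm share their vehicle libraries. The 3 genes under 50 kb that rose under BIC in shCtrl were Epha2 (28.2 kb), Sema7a (22.7 kb) and Efnb2 (43.3 kb), and the 2 of at least 200 kb that fell were Slit3 (587 kb) and Ephb1 (433 kb).

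**Figure D3:**
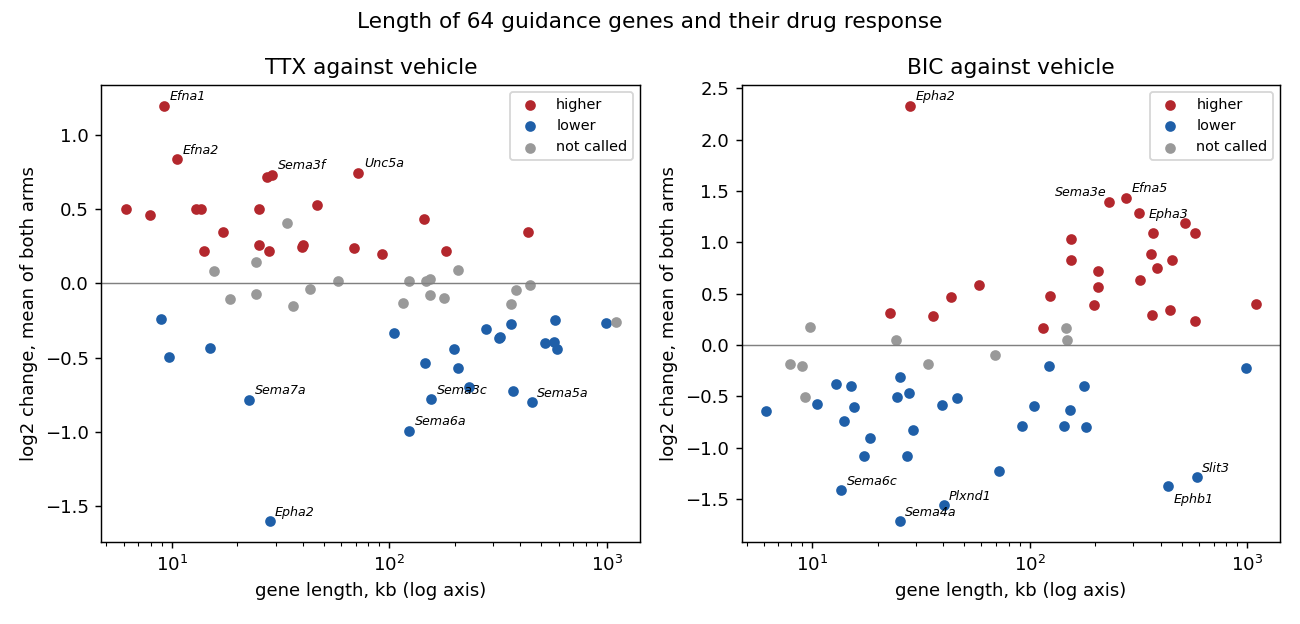
Log2 change averaged over both arms against gene length (log axis) for the 64 genes under TTX (left) and BIC (right), with genes called higher in red, called lower in blue and not called in grey. Long genes lie mostly below 0 under TTX and above 0 under BIC, and Epha2 (short and higher) and Slit3, Ephb1 and Epha6 (long and lower) are among those off that trend under BIC.

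The promoters of the other members were searched for sites of activity-regulated factors. Of 55 members with 71 promoters in the table, 13 held an EGR site (GCGNGGGCG), in 18.3% of their promoters against 5.55% of all promoters. The promoters of the guidance genes also had a higher median GC content, 64.7% against 52.7%. The 13 genes with an EGR site moved in both directions. Under the averaged BIC response 4 were higher, 6 lower and 3 not called (all genes 27.3% higher and 30.3% lower). Under the averaged TTX response 7 were higher, 5 lower and 1 not called (all genes 19.5% and 22.6%). An AP-1 site (TGANTCA) was found in 3 members (Sema4c, Sema4d and Sema6b, 4.23% of promoters against 7.81% of all), an E-box (CACGTG) in 5 (7.04% against 7.15%) and the short CRE site (TGACG, which also lies within the full element) in 10 (14.1% against 20.8%). The promoters of Efna5, Slit3 and Sema6b are printed because the first pair carry an EGR site and respond to BIC in opposite directions, and the last is an AP-1 bearer that fell under BIC. Sema6b has another promoter entry (chr17:56140294-56140593, not printed), which holds an EGR site and puts the gene among the 13. The capitals mark the site, CGCCCTCGC at -112 to -104 for Efna5 (chr17:62881268-62881567, minus strand), CGCCCGCGC at -17 to -9 for Slit3 (chr11:35121206-35121505, plus strand) and TGAGTCA at -48 to -42 for Sema6b (chr17:56133803-56134102, minus strand), all on GRCm38.p6, with both EGR sites read on the opposite strand.
Efna5: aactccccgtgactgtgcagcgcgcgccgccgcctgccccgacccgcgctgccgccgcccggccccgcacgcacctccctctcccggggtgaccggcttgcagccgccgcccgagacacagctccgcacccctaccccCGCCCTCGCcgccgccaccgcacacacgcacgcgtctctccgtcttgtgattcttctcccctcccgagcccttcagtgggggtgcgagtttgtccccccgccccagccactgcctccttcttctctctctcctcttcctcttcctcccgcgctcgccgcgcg
Slit3: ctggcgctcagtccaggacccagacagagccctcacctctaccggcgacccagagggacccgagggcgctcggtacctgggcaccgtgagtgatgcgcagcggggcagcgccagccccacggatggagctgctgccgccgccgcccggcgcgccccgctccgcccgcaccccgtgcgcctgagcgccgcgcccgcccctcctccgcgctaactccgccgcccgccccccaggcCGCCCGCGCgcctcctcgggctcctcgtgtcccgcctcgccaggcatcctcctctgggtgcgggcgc
Sema6b: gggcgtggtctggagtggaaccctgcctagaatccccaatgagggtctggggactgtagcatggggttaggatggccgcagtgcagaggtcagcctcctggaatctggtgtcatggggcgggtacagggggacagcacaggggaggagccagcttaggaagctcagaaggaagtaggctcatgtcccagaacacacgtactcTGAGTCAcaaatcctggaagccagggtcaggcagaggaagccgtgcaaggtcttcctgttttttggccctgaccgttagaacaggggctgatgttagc

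Genes of the wider guidance pathway also moved in both directions. Of 33 partner ligands and co-receptors with a mean count of at least 20, TTX in shCtrl raised 10 and lowered 11, with a median of 0.07, and BIC raised 13 and lowered 9, with a median of 0.11. In shRai1 TTX raised 10 and lowered 12 of them (median -0.06) and BIC raised 13 and lowered 12 (median 0.07). The shares of all genes in shCtrl, as given for the members, were 12.7% higher and 16.3% lower under TTX and 19.8% and 20.0% under BIC. For shRai1 they were 14.8% and 18.4% under TTX and 25.0% and 26.1% under BIC. Met, the hepatocyte growth factor receptor, fell by 1.16 (SE 0.13) under TTX and rose by 1.32 (SE 0.13) under BIC per the authors' deposited tables for shCtrl. Cntn2, an axonal adhesion molecule, did the reverse, with changes of 1.33 (SE 0.11) and -1.17 (SE 0.14) per the authors' deposited tables. Of 55 intracellular effectors of guidance, TTX in shCtrl raised 14 and lowered 12 (median 0.05) and BIC raised 18 and lowered 16 (median -0.08), against the same all-gene shares of 12.7% and 16.3%, and 19.8% and 20.0%. In shRai1 TTX raised 7 effectors and lowered 14 (median -0.006, all genes 14.8% and 18.4%), and BIC raised 21 and lowered 21 (median -0.03, all genes 25.0% and 26.1%). Rnd3, an atypical small GTPase that acts on the actin cytoskeleton, fell by 2.80 (SE 0.13) under TTX, and Rock2, a kinase that promotes actomyosin contraction, rose by 1.64 (SE 0.10) under BIC per the authors' deposited tables for shCtrl. Tiam2, a Rac exchange factor, rose by 1.46 (SE 0.09) and Chn2, a Rac-directed GTPase-activating protein, fell by 1.30 (SE 0.12) under BIC per the authors' deposited tables for shCtrl. These 6 genes were taken from the lists after their values were seen.

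The shRNA against Rai1 by itself changed no guidance gene past the threshold. In the authors' deposited tables for shRai1 against shCtrl, 0 of 64 genes were called in vehicle (all genes 0.867%), in TTX (0.0427%) or in BIC (0.0142%). An unadjusted p under 0.05 was reached by 7 genes in vehicle (all genes 11.3%), 10 in TTX (4.46%) and 3 in BIC (3.98%). The changes ranged from -0.22 to 0.45 in vehicle, where the outermost were Plxnb2 and Epha2, per the authors' deposited table. In TTX 47 of the 64 changes lay below 0 (all genes 7473 of 14067), from -0.30 for Plxnd1 to 0.25 for Ephb4, per the authors' deposited table. All 10 genes with an unadjusted p under 0.05 there had changes below 0, with adjusted p of 0.104 for Ephb1 (-0.28) and 1.00 for the other 9. The 3 genes in BIC were Efnb2 (0.21), Epha4 (-0.17) and Ephb1 (0.16) per the authors' deposited table, named after their values were seen. Averaged over the treatments with the Wald test computed here, 0 genes were called (all genes 0.00718%) and 2 had an unadjusted p under 0.05 (all genes 5.04%), Epha4 (-0.14, SE 0.048, adjusted p 0.925) and Slit3 (-0.11, SE 0.058, adjusted p 1.00).

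The arms differed in the TTX response of 3 guidance genes. The shRai1 response minus the shCtrl response, tested here with a Wald test adjusted over 18241 genes, was called for 3 of 64 genes under TTX (all genes 1.22%), all more negative in shRai1. An unadjusted p under 0.05 was reached by 11 of 64 (all genes 11.4%). Under BIC 0 genes were called (all genes 0.0287%) and 2 had an unadjusted p under 0.05 (all genes 3.64%), Efnb2 (0.36, SE 0.10, adjusted p 0.524) and Ephb6 (-0.56, SE 0.26, adjusted p 1.00).

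Ephb1, an EphB receptor on chr9:101824458-102257023 (mm9), rose by 0.56 (SE 0.08, adjusted p 1.44e-11) under TTX in shCtrl, and its change in shRai1 was 0.14 (SE 0.07, adjusted p 0.110), per the authors' deposited tables. The difference for Ephb1 was -0.42 (SE 0.10, adjusted p 0.0109). Plxnc1, the receptor of Sema7a, changed by 0.21 (SE 0.07, adjusted p 0.0152) in shCtrl and by -0.15 (SE 0.06, adjusted p 0.0600) in shRai1 per the authors' deposited tables, a difference of -0.36 (SE 0.095, adjusted p 0.0257). Efna3, a GPI-anchored ephrin with 26.1 FPKM in shCtrl vehicle and 35.9 in TTX, changed by 0.74 (SE 0.12, adjusted p 7.15e-09) in shCtrl and by 0.18 (SE 0.10, adjusted p 0.185) in shRai1 per the authors' deposited tables. The difference for Efna3 was -0.56 (SE 0.16, adjusted p 0.0390). Against shCtrl, these 3 genes in shRai1 stood at 0.14, 0.20 and 0.29 in vehicle and -0.28, -0.16 and -0.27 in TTX for Ephb1, Plxnc1 and Efna3 per the authors' deposited tables, none of them called. Slit1 was next in order, with a difference of -0.48 (SE 0.14, adjusted p 0.0534), and was chosen after its value was seen.

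Other genes moved with this contrast. Of 7 oligodendrocyte precursor markers with a mean count of at least 20, 5 had a TTX response more positive in shRai1, with a median difference of 1.10 (-0.19 to 1.86 over the 7), led by Pdgfra (1.86, SE 0.17). In vehicle 4 of the 7 were lower in shRai1, with a median of -0.73 per the authors' deposited table, and the summed level of the 8 listed markers in shCtrl was 140 FPKM in vehicle and 103 in TTX with none at 0. Of 12 neuron markers, the contrast called 0 higher and 1 lower, and of 9 astrocyte markers 0. The 6 activity-regulated genes had a median of -0.54 in shRai1 against shCtrl in vehicle per the authors' deposited table, 1 of them called, and a median TTX difference of 0.53, none called. The part of these shifts in the results for Ephb1, Plxnc1 and Efna3 was not tested. Beside 1.22% of all genes called in this contrast, 1 of the 33 guidance partners was called, Dscaml1 (-0.39, SE 0.11), and among the 55 effectors 2 were called, 1 more negative in shRai1 and 1 more positive, the latter Rnd3 (0.64, SE 0.18).

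**Figure D4:**
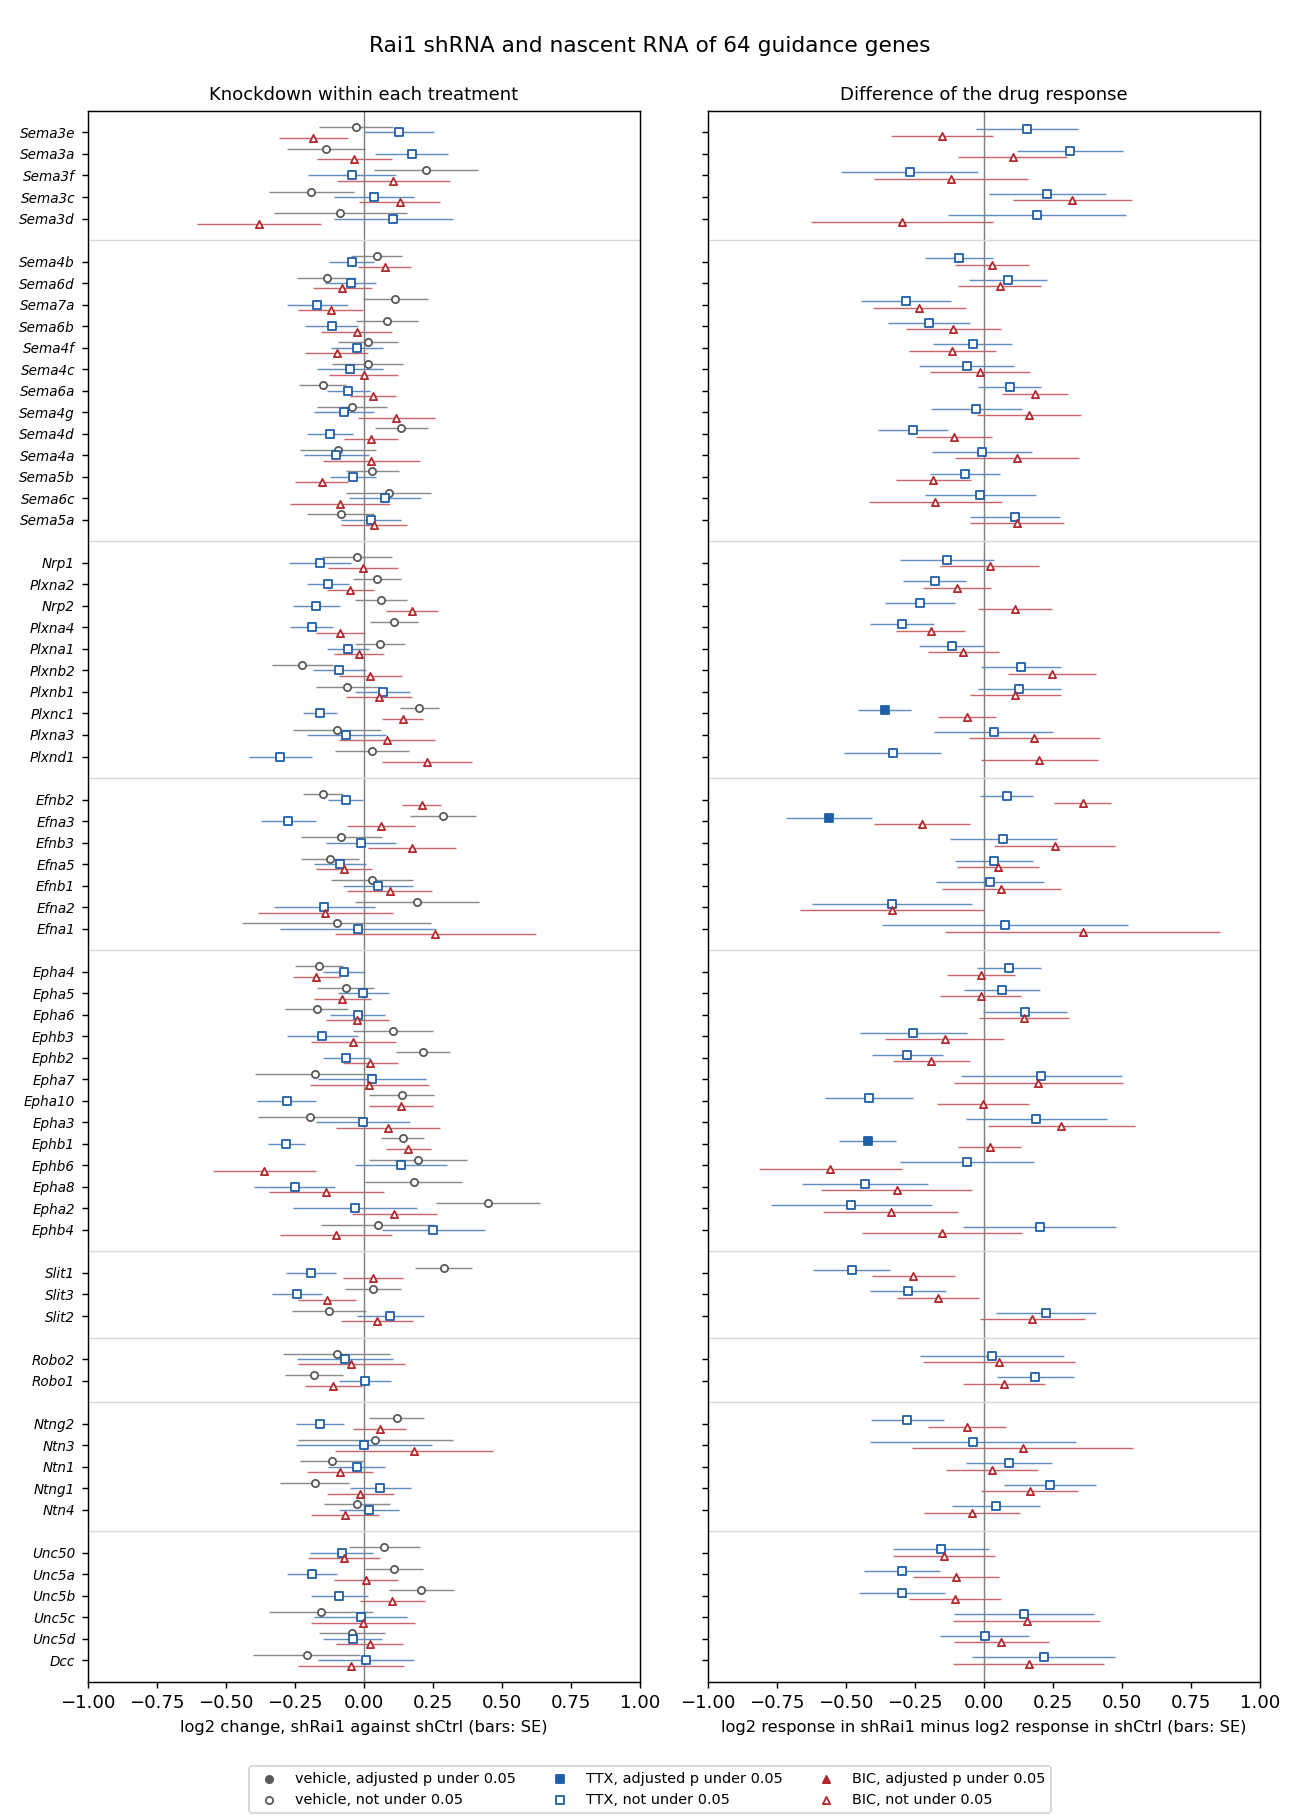
Log2 change of the 64 genes for shRai1 against shCtrl within vehicle, TTX and BIC (left) and the drug response in shRai1 minus that in shCtrl (right). Bars are the SE, and filled symbols have an adjusted p under 0.05. No symbol is filled on the left and 3 are filled on the right, the TTX differences of Plxnc1, Efna3 and Ephb1.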

How the data were processed

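The 16 Bru-seq libraries of 6 groups were compared, and 12 ChIP-seq samples were not analysed here. TopHat2 2.1.0, Bowtie2 2.2.6, DESeq2 and the build mm9 are named in the submitters' processing notes. Per the file headers, the authors deposited 7 comparison tables with a mean normalized count (a signal averaged over libraries after scaling), a log2 change, its standard error, a Wald score, and p-values before and after adjustment. The authors' FPKM table holds a single pooled level of each condition with its bounds, per the file headers. Gene names are absent from the vehicle knockdown table, and 20107 were recovered through the mean count, which is the same in all tables, while 1085 genes with a mean of at most 0.306 stayed unnamed. FPKM columns of the shRai1 conditions did not follow the knockdown tables, so levels are given for shCtrl only. The highest and lowest mean level of a family were ranked on the mean over all 6 conditions, which includes those columns.

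Computed here were averages over arms or treatments and the interactions, from contrasts that share no library, with a two-sided Wald test and Benjamini-Hochberg adjustment over the 18241 named genes whose mean reached 0.1 FPKM. The script was tested on simulated data. Tools were Python 3.11.15, pandas 2.3.3, numpy 2.4.6, scipy 1.17.1 and matplotlib 3.10.9. The members and the lists of partners, effectors and markers were chosen with earlier results of these data known. Named were, for each drug response, the 6 members that rose most and the 6 that fell most, interaction calls, the highest and lowest level per family, members called under both drugs in shCtrl, neighbours of the minimum count, and Rai1. Other genes were chosen after their values were seen, and not every called gene of the partner, effector and marker lists is reported here. Intervals come from the FPKM table, with starts given 1-based. Alternatives were thresholds of 0.01 and 0.1, other adjustment sets, centred changes, errors from the knockdown tables, a minimum mean count of 50, FPKM ratios with pseudocounts of 0.1 and 1, and members that overlap no other gene.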

Additional observations from a re-analysis of the deposited data

Results flagged for a closer look

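In 3 guidance genes the TTX response differed between the arms by a test of the difference itself. The shRai1 response minus the shCtrl response was -0.4206 for Ephb1, -0.561 for Efna3 and -0.3594 for Plxnc1 on the log2 scale, with adjusted p of 0.0109, 0.0390 and 0.0257 from the Wald test over 18241 genes. The shCtrl vehicle group, which enters each of these differences, had 2 libraries. Groups of 2 or 3 libraries, and tables without values per library, gave no test for a single library standing apart.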

How the results depend on the processing

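Of the counts and medians recomputed under the alternatives, 136 stayed close to the reported value and 2 moved. At a threshold of 0.01 the TTX differences between the arms called 0 of 64 guidance genes in place of 3. Over the 46 genes that overlap no other listed gene, the median BIC response in shRai1 was -0.29 in place of -0.15. The causes were not tested. No result reversed under the alternatives run on it. For single genes this was nearly fixed in advance, since a threshold, an adjustment set or an error cannot change the direction of a change. Centring moved the log2 changes by at most 0.04. Of the values recomputed for single genes, 255 kept their direction and their side of the threshold. The other 3 were the differences of Ephb1, Efna3 and Plxnc1 at 0.01. FPKM ratios were run on the shCtrl medians, not on single genes. Leaving out the called genes whose FPKM ratio had the opposite sign was chosen after seeing the data, and it kept the counts by length within 1.5 times, at 10 in place of 13 long genes that rose under BIC. No paired analysis was possible because the files hold no values per library, and leaving out each replicate in turn and the replicate block were not run for the same reason. Counts per library were not used, so the depth behind a call is known only through its SE, which was 0.33 for the TTX change of Efna1 in shCtrl, the gene with the lowest mean count.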
